A study of Homo sapiens with 9 samples.

Results

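The genes PLS3, UTS2, GAP43, CACNA1G, PKIA, RGS4, SEPT9 and RNF114 were followed through the 9 RNA sequencing libraries of a knockdown experiment on LRWD1, a protein that binds the origin recognition complex. They are 8 of the 23368 gene symbols in the count table and 8 of the 13648 genes with enough counts to test, and were picked by name from the genes that had lower levels with each of 2 siRNAs against LRWD1 than with a scrambled siRNA. The members were therefore chosen by the contrast with the scrambled libraries, and their decreases are given below as a description that supports nothing. The cells were A673, a single established line of Ewing sarcoma, a bone and soft tissue tumour driven by the EWS-FLI1 fusion. All 3 groups were transfected with 13 nM siRNA in medium that also held Zeocin and blasticidin: scrambled siRNA, siLRWD1-5 and siLRWD1-6, each collected after 48 h in 3 independent experiments. The experiment measures short-term loss of LRWD1 RNA in a single line, not a stable mutant.

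The members belong to different systems. UTS2 encodes the precursor of urotensin II, a small cyclic peptide that constricts blood vessels through a G protein-coupled receptor. CACNA1G encodes the pore of a T-type calcium channel, which opens at voltages near rest and is known from neurons that fire in bursts. RGS4 shortens signals of G protein-coupled receptors by speeding GTP hydrolysis on their alpha subunits. PKIA blocks the catalytic subunit of protein kinase A, the kinase switched on by cyclic AMP, and carries it out of the nucleus. GAP43 is a calmodulin-binding protein of the growing axon tip, and PLS3 (plastin 3) bundles actin filaments. SEPT9 is a septin, a GTP-binding protein that forms filaments used in cell division, and RNF114 is a RING-type ubiquitin ligase. Ewing sarcoma cells express several genes of neural type, and GAP43, CACNA1G and RGS4 are best known from neurons.

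Promoter sequences are shown because these genes were lower together and because ETS factors such as FLI1 bind sites with the core GGAA. RefSeq's promoter table (GRCh38.p14, matched by symbol or, for SEPT9, by its current symbol SEPTIN9) held 6 of the 8 members. Each line gives the 200 bases before the most upstream annotated start, 5′ to 3′ on the gene's strand, with GGAA and its reverse complement TTCC in capitals. Which start A673 cells use was not analysed. The regions are chrX:115560974-115561173 (plus strand) for PLS3, chr1:7853492-7853691 (minus strand) for UTS2, chr3:115623310-115623509 (plus strand) for GAP43, chr1:163068671-163068870 (plus strand) for RGS4, chr17:77281299-77281498 (plus strand) for SEPT9 and chr20:49936197-49936396 (plus strand) for RNF114.
PLS3: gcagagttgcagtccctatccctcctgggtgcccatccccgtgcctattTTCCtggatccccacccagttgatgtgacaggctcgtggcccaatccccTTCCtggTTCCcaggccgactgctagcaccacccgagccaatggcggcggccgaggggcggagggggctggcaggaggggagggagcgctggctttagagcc
UTS2: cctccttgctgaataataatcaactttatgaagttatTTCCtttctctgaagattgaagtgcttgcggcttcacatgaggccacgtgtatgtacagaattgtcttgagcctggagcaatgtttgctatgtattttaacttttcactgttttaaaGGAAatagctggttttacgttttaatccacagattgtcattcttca
GAP43: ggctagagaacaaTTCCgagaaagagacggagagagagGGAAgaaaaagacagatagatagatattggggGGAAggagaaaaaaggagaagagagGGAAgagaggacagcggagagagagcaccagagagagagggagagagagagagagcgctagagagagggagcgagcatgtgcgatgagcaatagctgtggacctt
RGS4: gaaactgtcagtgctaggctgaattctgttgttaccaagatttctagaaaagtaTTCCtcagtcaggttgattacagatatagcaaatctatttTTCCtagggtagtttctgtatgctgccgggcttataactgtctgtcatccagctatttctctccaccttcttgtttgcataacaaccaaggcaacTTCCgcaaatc
SEPT9: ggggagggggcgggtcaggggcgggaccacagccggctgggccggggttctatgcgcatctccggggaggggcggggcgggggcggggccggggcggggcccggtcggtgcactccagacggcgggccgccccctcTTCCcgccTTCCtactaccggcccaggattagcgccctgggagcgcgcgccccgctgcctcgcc
RNF114: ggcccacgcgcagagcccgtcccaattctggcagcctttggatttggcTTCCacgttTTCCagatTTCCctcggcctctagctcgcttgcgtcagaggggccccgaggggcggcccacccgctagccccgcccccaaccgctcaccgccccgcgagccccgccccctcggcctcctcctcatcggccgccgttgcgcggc

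All 6 windows held GGAA on either strand, from 2 matches in UTS2 and SEPT9 to 4 in GAP43. This core is common: 88.3% of the 27303 windows of the same length held it, with a median of 2 matches. The tandem form GGAAGGAA, which contains the core 2 times, was in none of the 6 and in 2.40% of all windows. CCAAT was in the windows of PLS3, GAP43 and RNF114 (28.9% of all windows), and GGGCGG in those of PLS3, SEPT9 and RNF114 (39.8%), with 7 matches in SEPT9. CACGTG was in that of UTS2 (5.59% of all). TATAAA, TGACGTCA and TGANTCA, held by 8.99%, 1.67% and 5.37% of all windows, had no match in the 6. All motifs were searched on both strands. The windows ranged from 36.5% G and C in UTS2 to 80.0% in SEPT9, around a median of 58.5% over all windows, so the 6 shared no base composition. A match describes these letters and is not evidence of a bound site.

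Libraries held between 11971179 and 15674452 counted reads. Levels below are TMM-scaled CPM, the count of a gene relative to the scaled library total. LRWD1 itself was at 49.1, 54.6 and 49.3 CPM in scrambled replicates 1 to 3, at 10.6, 11.3 and 10.4 CPM with siLRWD1-5, and at 6.55, 8.11 and 8.55 CPM with siLRWD1-6. Of 10 Ewing sarcoma markers, 9 were expressed enough to be tested. CD99, the tenth, was near 0 (0 to 3.70 CPM); it lies in a region shared by the X and Y chromosomes, so its counts are uncertain. Of 18 markers of other cell types, 1 was tested (CD68, 26.8 to 46.2 CPM) and 5 had no count in any library. Their summed level was 32.3 to 48.5 CPM in scrambled, 39.4 to 44.9 CPM with siLRWD1-5 and 28.7 to 30.0 CPM with siLRWD1-6. The summed level of the Ewing markers was 2838 to 3651 CPM in scrambled, 2072 to 2388 CPM with siLRWD1-5 and 2544 to 2784 CPM with siLRWD1-6, and its part in the results was not tested. CCND1 made up most of this sum (1494 to 2827 CPM). Of the 9 tested Ewing markers, 6 were called lower with siLRWD1-5 and 1, PRKCB, with siLRWD1-6. Of all genes tested, 20.3% and 7.78% were called lower. FLI1 had a log2 fold change of -0.52 with siLRWD1-5 (edgeR adjusted p = 5e-04) and 0.22 with siLRWD1-6 (edgeR adjusted p = 0.082). In these bulk libraries, fewer cells of a type and less RNA per cell cannot be told apart. Scrambled replicate 2 stood apart from the other scrambled libraries, with a chi-square per gene of 29.6 and 25.0 against 3.03 to 5.68 in the other replicate pairs. The members' decreases are given with and without it. Values of other named genes without it are given where a call was lost or a value moved by over 1.5 times. Calls gained without it appear as counts for each family, and the Ewing marker calls are given only with it. Of the markers of other cell types, 0 were called with all libraries, and 1 was called higher with siLRWD1-5 without it.

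In every member, all 6 siRNA libraries lay below all 3 scrambled libraries. That pattern held for 6.4% of all genes tested. Each member was also called lower in each comparison, at an adjusted p under 0.05 (the quasi-likelihood test of edgeR, adjusted over all genes by Benjamini and Hochberg), a threshold passed by 20.3% of genes as lower with siLRWD1-5, 7.78% with siLRWD1-6 and 2.37% with both. Both facts follow from how the members were picked. The median log2 fold change of the members was -0.999 with siLRWD1-5 and -0.95 with siLRWD1-6, against -0.01 and -0.02 over all genes tested. Both comparisons use the same 3 scrambled libraries. When the 305 genes called lower with both, with no overlap and a mean of at least 5 CPM, were ordered by the smaller of their 2 decreases, LRWD1 came first. The members held ranks 2 to 8 and 10, and the ninth is not described here. RNF114 was just inside with a smaller decrease of -0.82 on the log2 scale, and CYB5RL, at rank 11 and not a member, was just outside with -0.80.

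**Figure D1:**
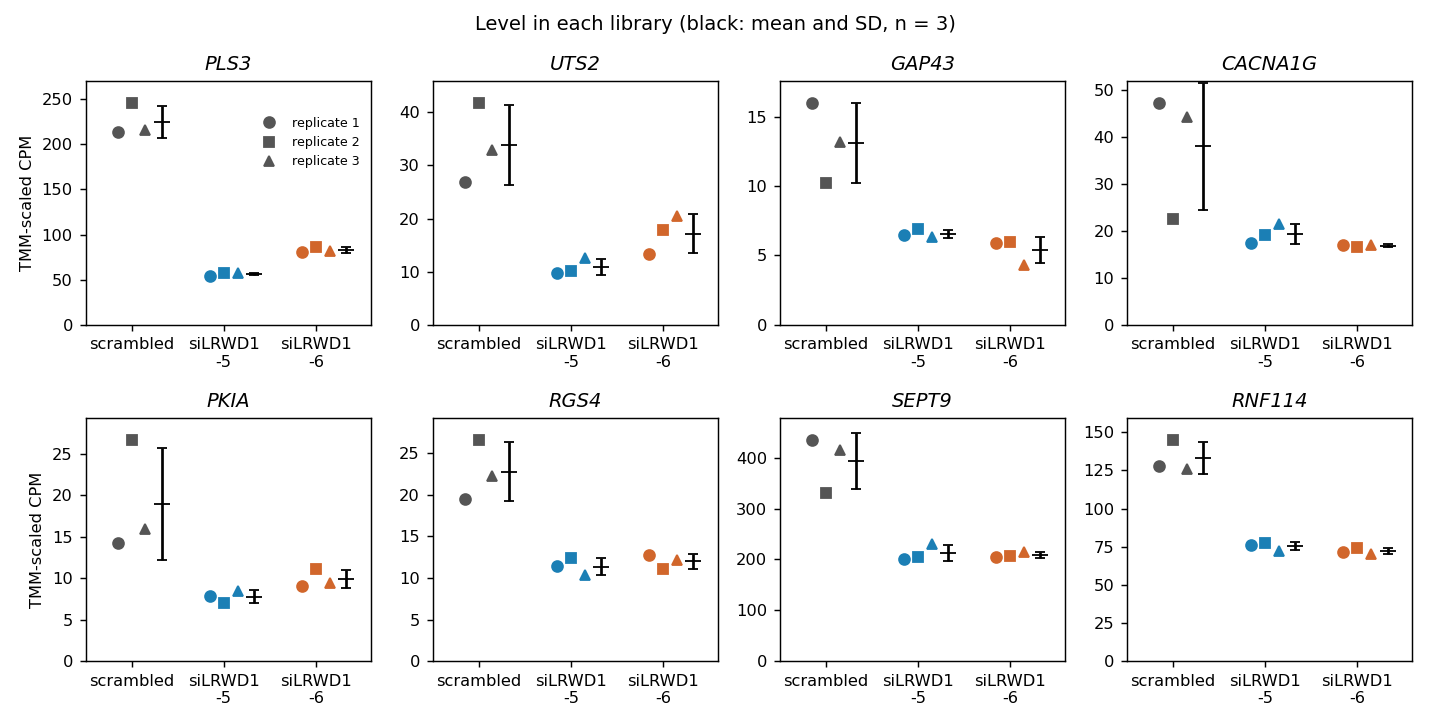
Level of each member in each library. Each panel shows TMM-scaled CPM (vertical axis from 0) for the 3 libraries of each group, with marker shape for the replicate number and black bars for the mean and SD (n = 3). In every panel the 6 siRNA libraries sit below the 3 scrambled libraries, and in CACNA1G the gap is narrow because scrambled replicate 2 is at 22.5 CPM.

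UTS2, the peptide hormone precursor, was at 26.9, 41.7 and 32.95 CPM in scrambled replicates 1 to 3. It was at 9.70, 10.1 and 12.5 CPM with siLRWD1-5, and at 13.3, 17.8 and 20.5 CPM with siLRWD1-6. The libraries of the 3 groups did not overlap, and siLRWD1-6 lay between the other two. This left 31.8% of the scrambled level with siLRWD1-5 (log2 fold change -1.65, SE 0.20) and 50.7% with siLRWD1-6 (-0.98, SE 0.19). Without scrambled replicate 2, its highest library, the log2 fold changes were -1.48 and -0.79.

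CACNA1G, the T-type channel pore, was at 47.3, 22.5 and 44.4 CPM in the scrambled libraries. It was at 17.4, 19.2 and 21.5 CPM with siLRWD1-5 and at 16.9, 16.5 and 17.1 CPM with siLRWD1-6. Scrambled replicate 2 was thus close to the highest siLRWD1-5 library, while replicates 1 and 3 were far above it. The mean was 38.1 ± 13.5 CPM in scrambled, 19.4 ± 2.07 CPM with siLRWD1-5 and 16.8 ± 0.304 CPM with siLRWD1-6 (SD, n = 3). The log2 fold changes were -0.98 (SE 0.24) and -1.18 (SE 0.24), or -1.25 and -1.43 without scrambled replicate 2.

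RGS4, the brake on G protein signals, was at 19.5, 26.6 and 22.2 CPM in the scrambled libraries. It was at 11.5, 12.4 and 10.3 CPM with siLRWD1-5 and at 12.8, 11.03 and 12.2 CPM with siLRWD1-6. The siRNA groups overlapped each other, and both stood clear of scrambled. RGS4 had 50.2% of its scrambled level with siLRWD1-5 (log2 fold change -0.99, SE 0.13) and 52.8% with siLRWD1-6 (-0.92, SE 0.13). These were -0.87 and -0.78 without scrambled replicate 2, the highest library.

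PKIA, the protein kinase A inhibitor, was at 14.3, 26.7 and 15.9 CPM in the scrambled libraries. It was at 7.81, 7.04 and 8.52 CPM with siLRWD1-5 and at 9.13, 11.2 and 9.40 CPM with siLRWD1-6. Scrambled replicate 2 was the high library here, the reverse of CACNA1G. The log2 fold changes of -1.28 (SE 0.22) and -0.93 (SE 0.22) became -0.95 and -0.59 without it, the largest shift toward 0 among the members.

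GAP43, the growth cone protein, was at 15.98, 10.2 and 13.2 CPM in the scrambled libraries. It was at 6.49, 6.89 and 6.33 CPM with siLRWD1-5 and at 5.92, 5.99 and 4.32 CPM with siLRWD1-6. It rested on the fewest reads of the members, from 51 to 253 counts per library. GAP43 was 2.01-fold lower with siLRWD1-5 (log2 fold change -1.004, SE 0.18) and 2.42-fold lower with siLRWD1-6 (-1.28, SE 0.18). Without scrambled replicate 2, in which it was lowest, these were -1.16 and -1.41.

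PLS3, the actin bundler, was at 214.0, 245.7 and 215.5 CPM in the scrambled libraries. It was at 54.5, 56.8 and 57.3 CPM with siLRWD1-5 and at 80.1, 86.3 and 81.6 CPM with siLRWD1-6. The groups were far apart relative to their spread, with SDs of 17.9, 1.5 and 3.21 CPM (n = 3). With siLRWD1-5, 25.0% of the PLS3 level was left (log2 fold change -2.002, SE 0.07) and with siLRWD1-6 36.7% (-1.44, SE 0.07), the largest decrease of the 8 members with either siRNA. With scrambled replicate 2 left out, PLS3 was at -1.94 and -1.37.

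SEPT9, the septin, was at 434.7, 331.3 and 414.7 CPM in the scrambled libraries. It was at 201.2, 205.4 and 230.2 CPM with siLRWD1-5 and at 204.4, 206.6 and 214.8 CPM with siLRWD1-6. All 6 siRNA libraries fell within a narrow range and overlapped between the siRNAs. With siLRWD1-5, 53.9% of the SEPT9 level was left (log2 fold change -0.89, SE 0.09) and with siLRWD1-6 53.0% (-0.92, SE 0.09). Leaving out scrambled replicate 2, the lowest of its group, gave -1.003 and -1.02.

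RNF114, the ubiquitin ligase, was at 128.1, 145.0 and 125.8 CPM in the scrambled libraries. It was at 76.4, 77.4 and 72.6 CPM with siLRWD1-5 and at 71.8, 74.1 and 70.6 CPM with siLRWD1-6. The spread was small in each group, and the log2 fold changes of -0.82 (SE 0.07) and -0.88 (SE 0.07) were the smallest decreases with siLRWD1-5 and with siLRWD1-6. They left 56.8% and 54.3% of the scrambled level, and were -0.75 and -0.80 with scrambled replicate 2 left out.

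**Figure D2:**
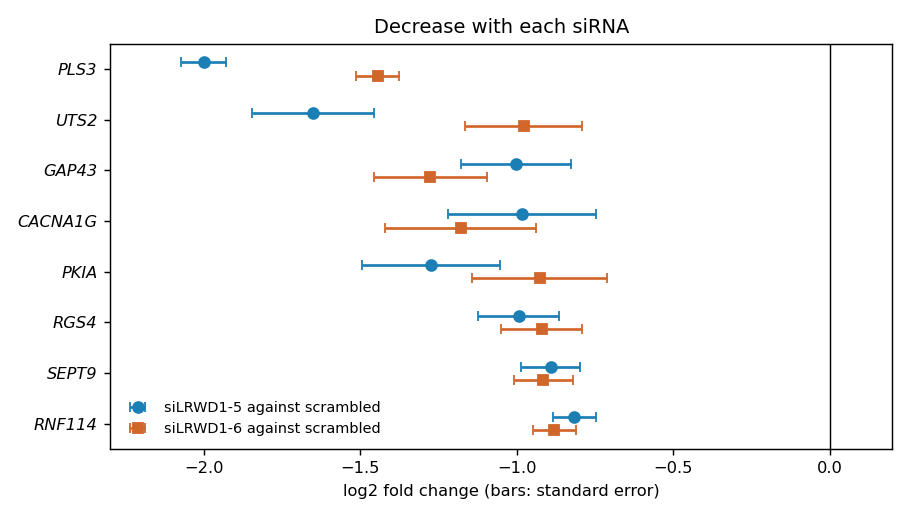
Log2 fold change of each member with siLRWD1-5 (circles) and siLRWD1-6 (squares) against scrambled, with standard errors as bars. PLS3 has the largest decreases (-2.002 and -1.44), and the siRNAs are set apart for PLS3 and UTS2 and close together for RGS4, SEPT9 and RNF114.

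The direct comparison of siLRWD1-6 with siLRWD1-5 was not used to pick the members, although it shares their siRNA libraries, and it asks whether the 2 siRNAs left different amounts of each RNA. PLS3 and UTS2 were higher with siLRWD1-6, and the other 6 members did not pass the test. Of the 8 members 2 were called higher and 0 lower, against 22.4% and 20.9% of all genes tested. No member was lower at an unadjusted p under 0.05 or by DESeq2 or limma-voom. PLS3 was 1.47-fold higher with siLRWD1-6 (log2 difference 0.56, SE 0.07, 95% interval 0.40 to 0.71, edgeR adjusted p = 7.8e-05). UTS2 was 1.59-fold higher (0.67, SE 0.20, interval 0.22 to 1.12, edgeR adjusted p = 0.021). The UTS2 call was lost without siLRWD1-5 replicate 1 (0.60) or 2 (0.64), or siLRWD1-6 replicate 2 (0.65) or 3 (0.54).

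For the other 6 members the interval of the log2 difference between the siRNAs included 0, which does not show that their levels were equal. It ran from -0.69 to 0.14 in GAP43, from -0.76 to 0.36 in CACNA1G and from -0.16 to 0.86 in PKIA. It was narrower in RGS4 (-0.22 to 0.37), SEPT9 (-0.23 to 0.18) and RNF114 (-0.21 to 0.09). PKIA passed the threshold without scrambled replicate 2, whose spread enters the shared error (log2 difference 0.36, edgeR adjusted p = 0.023), and with only the siRNA groups in the fit (0.35, edgeR adjusted p = 0.035). The libraries of the siRNAs did not overlap in 5 members (PLS3, UTS2, GAP43, CACNA1G and PKIA), a pattern that 61% of all genes tested also showed. LRWD1, the target, went the other way from PLS3 and UTS2: its level was lower with siLRWD1-6 (log2 difference -0.48, SE 0.12, edgeR adjusted p = 0.0058).

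Within groups, the members did not all vary in the same direction. Relative to the mean of scrambled replicates 1 and 3, scrambled replicate 2 was higher in 5 members and lower in 3. The log2 difference was 0.82 in PKIA, 0.49 in UTS2, 0.35 in RGS4 and 0.19 in both PLS3 and RNF114. It was -1.02 in CACNA1G, -0.50 in GAP43 and -0.36 in SEPT9. The coefficient of variation in scrambled ranged from 7.88% in RNF114 to 35.5% in CACNA1G and PKIA. In the siRNA groups it was highest in UTS2, at 13.9% with siLRWD1-5 and 21.1% with siLRWD1-6, and lowest in PLS3 with siLRWD1-5 (2.67%) and in CACNA1G with siLRWD1-6 (1.803%).

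**Figure D3:**
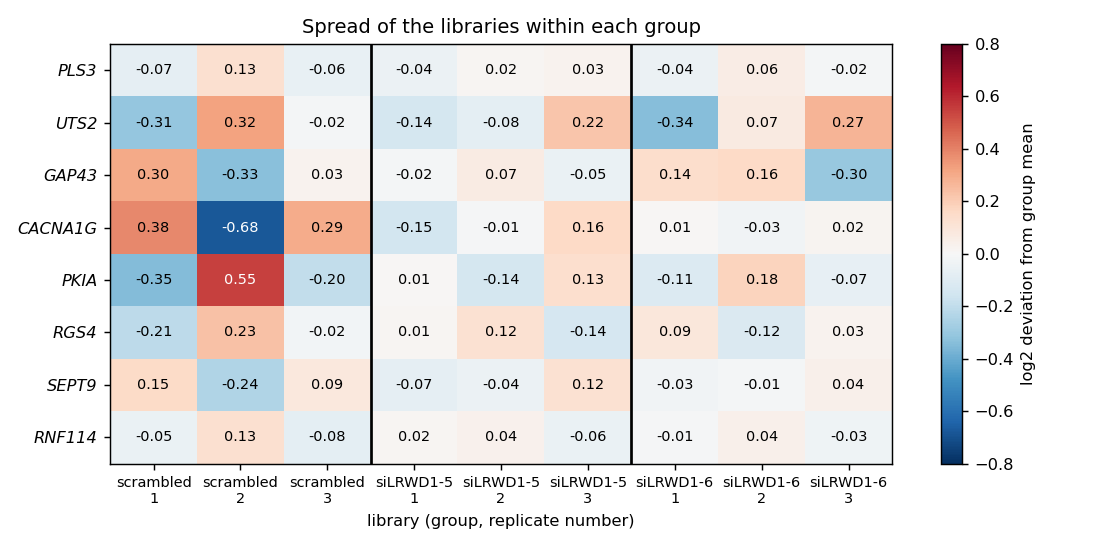
Log2 deviation of each library from the mean of its own group, for each member (rows) and library (columns, by group and replicate number). The strongest deviations are in scrambled replicate 2, where CACNA1G is at -0.68 and PKIA at 0.55, and among siRNA libraries the strongest is -0.34, in UTS2 with siLRWD1-6 replicate 1.

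The genes whose profile over the 9 libraries was most like each member's were looked up among 10729 genes with a mean of at least 5 CPM, by Pearson's r of log2 CPM. These are descriptions: the libraries fall into 3 groups, so r mainly reflects the order of the groups. The closest to PLS3 were UBA3 (r = 0.990) and TBC1D13 (0.985), and the closest to UTS2 were C8orf58 (0.985) and EXOC6B (0.980). GAP43 and CACNA1G shared TMEM100 as a near neighbour (0.971 and 0.957), beside GPR162 for GAP43 (0.963) and UBTF for CACNA1G (0.958). PKIA was closest to EDARADD (0.966) and LRRC4 (0.965), RGS4 to TBKBP1 (0.983) and UBQLN2 (0.976), and SEPT9 to LINGO1 (0.990) and DLX1 (0.967). The neighbours of RNF114 were VAX1 (0.987) and the siRNA target LRWD1 (0.985). These neighbours differed in how far they moved: with siLRWD1-5, the log2 fold change was -0.14 in UBTF and -1.02 in LRRC4, and -2.24 in LRWD1. The order of the libraries matched less well in 2 pairs: Spearman's rho was 0.50 for SEPT9 with DLX1 and 0.63 for CACNA1G with UBTF. In the other pairs it was at least 0.77.

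Relatives of the members were examined to see whether whole families were lower. Of 132 listed symbols of relatives, 90 were tested. With siLRWD1-5, 24 were lower (26.7%) and 17 higher (18.9%), against 20.3% and 18.5% of all genes tested. With siLRWD1-6, 11 were lower (12.2%) and 8 higher (8.89%), against 7.78% and 8.81%. The median log2 fold change of the relatives was -0.08 and -0.04. Lower calls with siLRWD1-6 numbered 17 without scrambled replicate 2 and 17 with the replicate number as a block. Lower calls over all genes rose in both settings too, from 1062 to 1838 without scrambled replicate 2 and by less with the block. In proportion, the rise over all genes was larger than that of the relatives without that library, and smaller with the block. These differences in rise were not tested. The 7.78% above is therefore not the reference for these 2 counts. Without scrambled replicate 2, calls with siLRWD1-5 over all genes rose from 2765 to 3464 lower and from 2527 to 3326 higher. Higher calls with siLRWD1-6 rose from 1203 to 2115. The family counts below without that library stand beside these rises and are not results about the families. All calls below are from the same edgeR fit at an adjusted p under 0.05. The genes beyond the 3 with the smallest p per family and comparison were named after their values were seen.

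**Figure D4:**
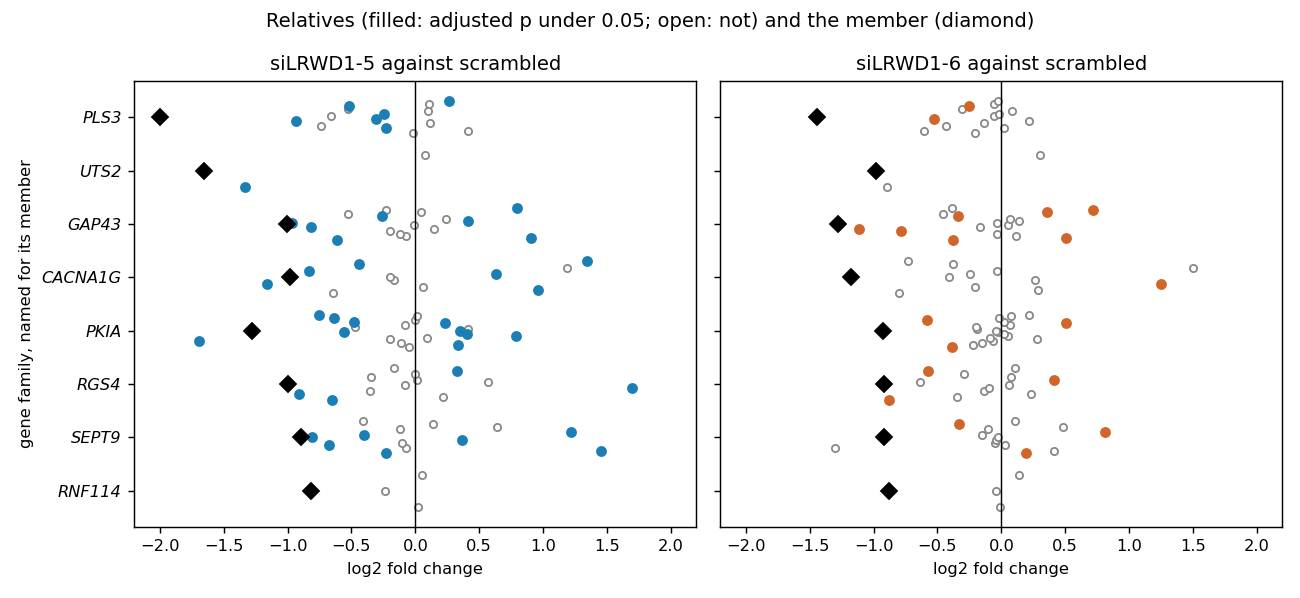
Log2 fold change of the tested relatives of each member with siLRWD1-5 (left) and siLRWD1-6 (right) against scrambled. Filled circles passed an adjusted p of 0.05, open circles did not, and diamonds are the members themselves; relatives lie on both sides of 0 in every family with each siRNA.

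Among 14 tested actin bundlers and crosslinkers, relatives of PLS3, 5 fell and 1 rose with siLRWD1-5. The muscle-type alpha-actinin ACTN2 was 1.91-fold lower (log2 fold change -0.94, SE 0.09, edgeR adjusted p = 1.3e-05). The actin regulator LIMA1 was 1.43-fold lower and ACTN4 1.24-fold lower. Filamin A (FLNA, -0.24) and fascin (FSCN1, -0.23) fell slightly, and the spectrin SPTBN1 rose (0.27). With siLRWD1-6, ACTN4 (1.44-fold) and LIMA1 (1.19-fold) fell and 0 rose; at an unadjusted p under 0.05, 1 gene was higher, and DESeq2 and limma-voom called 0 higher. The other plastins did not pass the test with siLRWD1-5 or siLRWD1-6: PLS1 had log2 fold changes of -0.02 and -0.20, and LCP1 0.41 and -0.61. The small calls were not stable. LIMA1 with siLRWD1-6 was lost in 14 of 18 alternatives (edgeR and other tools, adjusted p up to 0.17), among them scrambled replicate 2 (-0.16) or 3 (-0.27), any siLRWD1-5 library (-0.25, -0.24 and -0.25 for 1 to 3) and any siLRWD1-6 library (-0.23, -0.26 and -0.25) left out. FSCN1 was lost in 12 alternatives and FLNA and SPTBN1 in 6 each. FSCN1 was lost without scrambled replicate 1 (-0.20) or 3 (-0.22), siLRWD1-5 replicate 1 (-0.18) or 2 (-0.17), or any siLRWD1-6 library (-0.23, -0.23 and -0.22). FLNA was lost without scrambled replicate 3 (-0.22) or siLRWD1-5 replicate 1 (-0.19) or 2 (-0.24). SPTBN1 was lost without scrambled replicate 1 (0.26), any siLRWD1-5 library (0.29, 0.28 and 0.24) or siLRWD1-6 replicate 1 (0.27), and was at 0.17 without scrambled replicate 2 and 0.37 without scrambled replicate 3. ACTN4 with siLRWD1-5 was lost without its replicate 1 (-0.25). Without scrambled replicate 2, 6 genes fell and 3 rose with siLRWD1-5, and 1 fell with siLRWD1-6.

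UTS2 had few expressed relatives. Of 10 listed symbols of the urotensin and somatostatin peptides and receptors, 9 were in the table and 2 were tested. The urotensin receptor UTS2R averaged 0.200 CPM in scrambled and the paralogous peptide gene UTS2D 0.441 CPM, both too low to test. The somatostatin receptor SSTR1 fell with siLRWD1-5, from 2.23 to 0.879 CPM (log2 fold change -1.33, SE 0.35, edgeR adjusted p = 0.01). This call was lost without siLRWD1-5 replicate 1 (-1.17) and with only the libraries numbered 1 and 3 (-0.92). None passed with siLRWD1-6 by edgeR, DESeq2 or limma-voom, and 1 was lower at an unadjusted p under 0.05.

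Among 16 tested growth cone and neuronal cytoskeleton genes, relatives of GAP43 in function, 4 fell and 3 rose with each siRNA. BASP1, a membrane protein of the same kind as GAP43, fell 1.53-fold with siLRWD1-5 and 1.30-fold with siLRWD1-6, and the collapsin response mediator CRMP1 fell 1.20-fold and 1.26-fold. MARCKS, another calmodulin-binding membrane protein, rose 1.87-fold with siLRWD1-5 (log2 fold change 0.90, SE 0.06, edgeR adjusted p = 8.1e-07) and 1.42-fold with siLRWD1-6. CALM3, which encodes calmodulin, fell 1.95-fold with siLRWD1-5, while DPYSL2 (1.33-fold) and the adhesion molecule NCAM1 (1.73-fold) rose. With siLRWD1-6, neurogranin (NRGN) fell 2.16-fold and STMN3 1.72-fold, and the adhesion molecule L1CAM (1.64-fold) and MAP1B (1.28-fold) rose. With scrambled replicate 2 left out, 7 of these genes fell with each siRNA in place of 4, while lower calls over all genes rose too. BASP1 with siLRWD1-6 lost its call without replicate 1 (-0.36) or 3 (-0.34) of that group.

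Of 11 tested calcium channel subunits, 3 fell and 3 rose with siLRWD1-5. CACNA2D1, an auxiliary subunit, fell 1.78-fold (log2 fold change -0.83, SE 0.10, edgeR adjusted p = 8.5e-05), and CACNG4 fell 1.35-fold. CACNB3 rose 1.55-fold, the L-type pore gene CACNA1C 1.95-fold (from 1.92 to 3.79 CPM) and CACNG8 2.53-fold (from 1.04 to 2.57 CPM). CACNA1I, a T-type pore gene like CACNA1G, fell with siLRWD1-5 (-1.16, SE 0.34, edgeR adjusted p = 0.018) and rose 2.38-fold with siLRWD1-6 (1.25, SE 0.28, edgeR adjusted p = 0.011). Its mean level was low, at 3.14 CPM in scrambled, 1.44 CPM with siLRWD1-5 and 7.59 CPM with siLRWD1-6. The third T-type gene, CACNA1H, did not pass with siLRWD1-5 or siLRWD1-6 (0.06 and -0.21). No subunit was called lower with siLRWD1-6 by edgeR, DESeq2 or limma-voom, while 2 were lower at an unadjusted p under 0.05 and 1 was called without scrambled replicate 2 and 1 with the replicate number as a block. The CACNA1I decrease lost its call without scrambled replicate 1 (-0.89) or 3 (-1.12) or siLRWD1-5 replicate 1 (-1.14) or 2 (-0.88). CACNG4 lost its call without siLRWD1-5 replicate 1 (-0.41) or 3 (-0.36), and CACNG8 without scrambled replicate 1 (1.06) or siLRWD1-5 replicate 2 (1.14). With only the groups compared in the fit, the decreases of CACNA1I and CACNG4 with siLRWD1-5 also lost their calls (edgeR adjusted p = 0.055 and 0.054).

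All 19 listed genes of the protein kinase A system were tested. With siLRWD1-5, 5 fell and 5 rose. PRKACB, a catalytic subunit that PKIA binds, fell 3.24-fold, from 63.97 to 19.8 CPM (log2 fold change -1.70, SE 0.09, edgeR adjusted p = 1.3e-07). The cyclic AMP response factor CREB1 fell 1.69-fold, the regulatory subunit PRKAR2B 1.47-fold, and the anchors AKAP12 and AKAP10 fell 1.55-fold and 1.39-fold. The inhibitor PKIG rose 1.26-fold, the regulatory subunits PRKAR1B and PRKAR2A 1.72-fold and 1.33-fold, and the anchors AKAP1 and AKAP9 1.27-fold and 1.17-fold. With siLRWD1-6, the anchor AKAP11 fell 1.498-fold and the inhibitor PKIB 1.31-fold, and AKAP9 rose 1.42-fold. PRKACB had a log2 fold change of -0.07 with siLRWD1-6, which did not pass. AKAP9 with siLRWD1-5 was lost in 10 of 18 alternatives: its log2 fold change was 0.25 and 0.14 without scrambled replicates 1 and 2, 0.27, 0.21 and 0.23 without each siLRWD1-5 library and 0.23 without each siLRWD1-6 library. Leaving out scrambled replicate 2, 7 genes fell with siLRWD1-5, and 4 fell and 2 rose with siLRWD1-6. PKIB was lost without siLRWD1-6 replicate 3 (-0.33).

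Of 12 tested regulators of G protein signalling, 2 fell and 2 rose with siLRWD1-5. RGS2, which acts on Gq-coupled receptors, fell with each siRNA, 1.58-fold and 1.84-fold (log2 fold change with siLRWD1-6 -0.88, SE 0.16, edgeR adjusted p = 0.0035). RGS5 fell 1.87-fold with siLRWD1-5, and RGS11 rose 3.25-fold, from 1.68 to 5.55 CPM. RGS19 rose 1.26-fold with siLRWD1-5 and fell 1.49-fold with siLRWD1-6, and RGS16 rose 1.33-fold with siLRWD1-6. RGS19 with siLRWD1-5 lost its call without scrambled replicate 3 (0.25) or any siLRWD1-5 library (0.34, 0.34 and 0.31). RGS16 lost its call without scrambled replicate 1 (0.41) or 3 (0.36), siLRWD1-5 replicate 3 (0.41) or any siLRWD1-6 library (0.44, 0.31 and 0.48). Without scrambled replicate 2, 5 regulators were higher with siLRWD1-5 in place of 2.

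Of 13 tested septins and their CDC42EP partners, 4 fell and 3 rose with siLRWD1-5. SEPT10 fell 1.75-fold (log2 fold change -0.81, SE 0.08, edgeR adjusted p = 2.5e-05), SEPT6 1.60-fold, SEPT11 1.32-fold and SEPT2 1.17-fold. SEPT3 rose 2.74-fold, SEPT8 1.29-fold and CDC42EP1, a septin-binding effector of CDC42, 2.33-fold. With siLRWD1-6, CDC42EP4 fell 1.26-fold, while CDC42EP1 (1.76-fold) and SEPT2 (1.14-fold) rose. No septin other than SEPT9 was called lower with siLRWD1-6 in this fit. SEPT7, which is found in the same filaments as SEPT9, had log2 fold changes of -0.11 and -0.05. SEPT2 with siLRWD1-6 lost its call without scrambled replicate 1 (0.20) or 3 (0.18) or siLRWD1-6 replicate 1 (0.18) or 2 (0.17), and CDC42EP4 without siLRWD1-6 replicate 1 (-0.31) or 2 (-0.33). Without scrambled replicate 2, 6 of these genes fell and 5 rose with siLRWD1-5, and 2 fell and 3 rose with siLRWD1-6.

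The 3 relatives of RNF114 among RING ligases were all tested and 0 passed with siLRWD1-5 or siLRWD1-6 by edgeR, DESeq2 or limma-voom. RNF125 had log2 fold changes of 0.02 and -0.01, RNF138 -0.24 and -0.04, and RNF166 0.05 and 0.14. At an unadjusted p under 0.05, 1 was lower with siLRWD1-5 (RNF138), and 1 was called lower without scrambled replicate 2.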

How the data were processed

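RNA of A673 cells was sequenced in 9 libraries, 3 per group, with groups and replicate numbers taken from the labels. The authors deposited 1 table of raw counts per gene symbol, not normalized. The submitters' processing notes name the build hg19 and the tools HTSeq 0.5.4p3, TopHat2 2.0.10 and bcl2fastq 1.8.4. For annotation and strand, the setting is not given in the sources used here, so reads of overlapping genes cannot be told apart. Reads of genes with near-identical copies can be split between them. Counts of calls cover all listed genes, and some of those genes are not reported here by name.

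Genes were kept with filterByExpr (13648 of 23368, at least 99.92% of the counts of each library), scaled by TMM and tested across all genes with edgeR 4.0.16 in R 4.3.3, with the robust quasi-likelihood fit, group as the only term and Benjamini-Hochberg adjustment. SE was derived from the F statistic, and 95% intervals from the moderated degrees of freedom. Library totals were 11971179 to 15674452 counts, and replicates differed by more than counting error (3.03 to 29.6 as chi-square per gene). The fit was tested on simulated data. Members, families and markers were chosen with earlier results of these data known. Named genes were the members, LRWD1, up to 3 genes past the threshold per family and comparison with the smallest p, any other family gene with its values, and the 2 genes most correlated with each member. Alternatives were RLE scaling, no scaling, other count filters, DESeq2 1.42.0, limma-voom (limma 3.58.1), a replicate block, only the groups compared, only the libraries numbered 1 and 3, and leaving out each library. Promoters were read from RefSeq's table with Python 3.11.15.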

Additional observations from a re-analysis of the deposited data

How the results depend on the processing

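All 8 members had lower fitted levels with both siRNAs under each of the 18 alternatives run. The alternatives used the libraries by which the members were picked, so this is a description and supports nothing. Between the siRNAs, 2 members were called higher with siLRWD1-6, or 1 to 3 when a library was left out, and 3 with only the groups compared in the fit. SEPT9, not called, changed direction between the siRNAs without siLRWD1-5 replicate 3 (0.037 on the log2 scale in place of -0.02; range -0.062 to 0.037 when a library was left out); the cause was not tested. Over all genes, those lower with siLRWD1-6 numbered 1062, but 696 with only the groups compared in the fit, 1646 with only the libraries numbered 1 and 3, and 546 to 1838 when a library was left out. Those higher numbered 1203, but 1933 with only the libraries numbered 1 and 3 and 702 to 2115 when a library was left out. Relatives of the members lower with siLRWD1-6 numbered 11, but 18 with only the libraries numbered 1 and 3 and 8 to 17 when a library was left out. Among the fits that left out 1 library, the highest of these counts came without scrambled replicate 2.

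In the labels each group has a series 1, 2 and 3, with no word on whether a series is 1 experiment shared by the groups. Deviations from the group means of libraries with the same number correlated by 0.05 to 0.37, and 8 of 9 libraries correlated best with their own number, a hint from the data and not the design. With the replicate block, relatives lower with siLRWD1-6 numbered 17 in place of 11 (those of GAP43 6 in place of 4), and 2 members were still called higher with siLRWD1-6 than with siLRWD1-5. Lower calls with siLRWD1-6 over all genes also rose with the block, but by a smaller proportion than those of the relatives, a difference that was not tested. GAP43 had the fewest counts of the members, 51 to 253 per library.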
